A study of Arabidopsis thaliana with 9 samples.

Results

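Cytokinins are adenine-derived hormones that drive cell division and shoot formation, and 10 Arabidopsis thaliana genes that make or destroy them were followed in callus with an altered level of PNET1, a membrane protein of the nuclear envelope. The genes were taken by locus identifier from the 32833 genes of the deposited count table: the cytokinin oxidase/dehydrogenases CKX1 to CKX7, the cytokinin hydroxylases CYP735A1 and CYP735A2, and the adenosine phosphate isopentenyltransferase IPT3. Each genotype had 3 libraries in the Col-0 ecotype: wild type, a pnet1 mutant (pnet1) and a PNET1 overexpression line (the overexpressor). All were callus from hypocotyl pieces of dark-grown seedlings kept for 4 days on callus induction medium and then for 10 days on shoot induction medium, with no other treatment. The sources used here do not give the kind of mutant allele, the promoter of the overexpression construct or whether replicates were separate cultures. The p-values therefore measure library-to-library spread, which may be technical.

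Isopentenyltransferases such as IPT3 make the first cytokinin nucleotides, CYP735A enzymes hydroxylate their side chain to give trans-zeatin forms, LOG enzymes release the active bases, and CKX enzymes cut the side chain off and so end the signal. The CKX proteins differ in where they work: CKX2, CKX4, CKX5 and CKX6 are secreted, CKX1 and CKX3 reside in compartments of the secretory pathway and the vacuole, and CKX7 is cytosolic. Several CKX genes and CYP735A2 are themselves induced by cytokinin, and shoot induction medium is rich in it.

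Libraries held between 16890848 and 19493969 counts. PNET1 (AT1G07970, matched to the name from background knowledge) had 28.9 to 32.7 CPM (the count scaled to library size by TMM) in wild type, 1.12 to 1.54 in pnet1 and 4590 to 5215 in the overexpressor, so its level followed the labels in all 9 libraries. On the first principal component, with 67.7% of the variance, wild-type replicate 3 was the wild-type library nearest the mutant, and overexpression replicate 1 the nearest of its line. All 10 callus markers had counts, but LBD29 had 1 count in 1 library and LBD16, LBD17 and LBD18 had 2 to 30 counts per library. Of 9 tested, 5 rose in the mutant, among them WOX11 and PLT3, and WOX5 fell. The summed level was 647 to 696 CPM in wild type, 797 to 848 in pnet1 and 640 to 699 in the overexpressor. WIND1 alone had 387 to 413 CPM in wild type. Of the other marker lists with no value beside a gene, 2 of 6 shoot meristem markers, 1 of 5 of xylem and 1 of 6 of root rose in the mutant, 3 of root fell (12.6% of all tested genes rose and 17.4% fell), and none was at 0 in all libraries.

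CKX3 carried most of the transcript of the family. Per kilobase of gene length, its wild-type level was 72.1 ± 17.1 CPM per kb (SD, n = 3), above 92.4% of the tested genes, whereas CKX7 had 7.68 ± 0.739, CYP735A2 7.15 ± 1.06, CKX5 6.21 ± 0.631, CKX1 4.69 ± 0.480 and CKX4 2.05 ± 0.415 CPM per kb. In this order the wild-type libraries of CKX7 and CYP735A2 overlapped, as did those of CYP735A2 and CKX5, while CKX3, CKX5, CKX1 and CKX4 each stood above the next gene in every library. CKX6 followed at 0.179 ± 0.143, IPT3 at 0.120 ± 0.0624 and CKX2 at 0.0343 ± 0.0360 CPM per kb, with overlapping libraries, and CYP735A1 had no count. The filter on low counts kept 7 of the 10 genes: CKX1, CKX3, CKX4, CKX5, CKX6, CKX7 and CYP735A2.

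**Figure D1:**
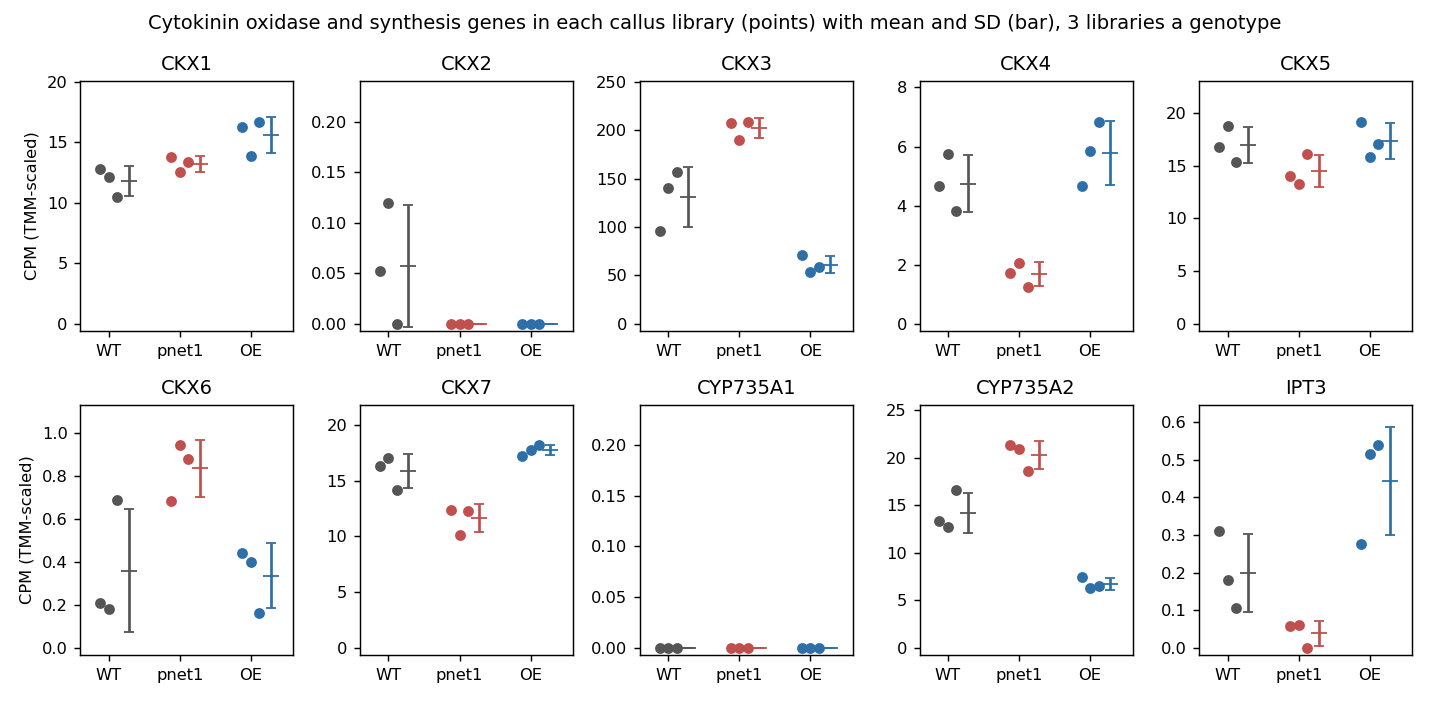
TMM-scaled CPM of the 10 genes in each library (points; WT, wild type; pnet1, mutant; OE, PNET1 overexpression), with the mean and SD of 3 libraries beside them; each panel has its own linear axis. CKX3 and CYP735A2 are highest in pnet1 and lowest in the overexpressor, CKX4 and CKX7 are lowest in the mutant, and CYP735A1 is at 0 throughout.

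The 250 bases upstream of the annotated start are shown for the 4 of 7 tested genes that passed edgeR's test (adjusted p under 0.05) in the mutant, as 30.0% of all tested genes did, since CKX3 and CYP735A2 were higher there and CKX4 and CKX7 lower. The sequences were read from RefSeq assembly TAIR10.1, in which the start and end of all 10 genes were the same as in the deposited table, and run 5′ to 3′ along the gene's strand. Capitals mark AGATT, the core bound by type-B response regulators (ARRs), the transcription factors of cytokinin signalling, or its reverse complement.
CKX3 (chr5:23048293-23048542, minus strand): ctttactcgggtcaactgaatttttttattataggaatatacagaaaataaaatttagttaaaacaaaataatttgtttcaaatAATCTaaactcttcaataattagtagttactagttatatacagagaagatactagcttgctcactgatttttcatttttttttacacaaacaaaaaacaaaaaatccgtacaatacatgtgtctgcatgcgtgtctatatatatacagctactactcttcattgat
CYP735A2 (chr1:25065447-25065696, minus strand): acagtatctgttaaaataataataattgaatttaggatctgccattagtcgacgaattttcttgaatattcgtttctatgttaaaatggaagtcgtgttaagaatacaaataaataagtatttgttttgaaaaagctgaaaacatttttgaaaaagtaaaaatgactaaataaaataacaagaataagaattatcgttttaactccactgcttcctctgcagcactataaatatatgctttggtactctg
CKX4 (chr4:14565933-14566182, plus strand): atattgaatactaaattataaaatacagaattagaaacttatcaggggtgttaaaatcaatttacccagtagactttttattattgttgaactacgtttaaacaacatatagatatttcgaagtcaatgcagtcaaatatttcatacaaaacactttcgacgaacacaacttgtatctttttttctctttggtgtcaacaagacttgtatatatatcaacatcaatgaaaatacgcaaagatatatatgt
CKX7 (chr5:7226356-7226605, plus strand): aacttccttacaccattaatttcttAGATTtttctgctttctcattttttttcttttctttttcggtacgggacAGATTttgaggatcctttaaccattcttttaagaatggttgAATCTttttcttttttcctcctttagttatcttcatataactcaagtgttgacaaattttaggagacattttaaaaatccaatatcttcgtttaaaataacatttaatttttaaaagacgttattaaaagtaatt
AGATT occurred on either strand 1 time upstream of CKX3, 3 times upstream of CKX7 and 0 times upstream of CYP735A2 and CKX4. The variant core AGATC, not in capitals, occurred 1 time upstream of CYP735A2 and 0 times upstream of the other 3 genes, and 26.6% of all windows held it. Of all 27443 upstream windows of this length at protein-coding genes, 63.7% held AGATT, with a mean of 1.04 matches. The longer form AAGATTTT, which contains AGATT, was in 6.0% of all windows and upstream of 0 of the 10 genes, and AAGATCTT, which contains AGATC, was in 0.8% and likewise upstream of 0 of the 10.

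Among the synthesis enzymes, CYP735A2 fell by over 2-fold in the overexpression line and rose in the mutant. The gene (AT1G67110, chromosome 1, positions 25061673 to 25065446, minus strand, 4 exons) had 13.4, 12.7 and 16.6 CPM in wild type, 21.3, 20.9 and 18.6 in pnet1 and 7.43, 6.24 and 6.53 in the overexpressor. The 3 genotypes did not overlap, as 45.3% of all tested genes did not for mutant against wild type, 28.4% for overexpression against wild type and 53.5% between both lines: every mutant library was above, and every overexpression library below, all wild-type libraries. In the mutant the log2 fold change was 0.51 (edgeR quasi-likelihood adjusted p = 0.0012, SE 0.10), a 1.42-fold rise. In the overexpression line it fell by 1.08 in log2 (edgeR adjusted p = 7.0e-05, SE 0.12), to 2.12-fold below wild type, a change larger in size than that of 99.5% of tested genes. Both calls held under all 20 alternatives.

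The paralog CYP735A1 (AT5G38450, chromosome 5) had 0 counts in all 9 libraries, where a count of 0 allows up to 3 counts, or 0.156 to 0.180 CPM in a library. The 2 hydroxylase genes were 77.0% identical over their aligned coding bases, and the longest run that their exons shared was 36 bases. All hydroxylase counts were assigned to CYP735A2, with 10.2 ± 0.732 CPM per kb in pnet1 and 3.38 ± 0.312 CPM per kb in the overexpressor.

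IPT3 (AT3G63110, chromosome 3, positions 23317971 to 23319636, minus strand, 1 exon), a nitrate-induced gene known from phloem, was near the limit of detection. It had 6, 3 and 2 counts in wild type, 1, 1 and 0 in the mutant and 5, 9 and 10 in the overexpression line. In CPM all mutant libraries were below all libraries of both other genotypes, while wild type and the overexpression line overlapped. A 2-sided exact permutation test gave p = 0.10 for mutant against wild type and p = 0.10 for overexpression against mutant, the smallest that 3 against 3 libraries allow, and p = 0.20 for overexpression against wild type. With no filter on low counts, edgeR's adjusted p was 0.12 for mutant against wild type, 0.31 for overexpression against wild type and 0.0023 for overexpression against mutant. Markers of phloem had another order: their summed level was 695 to 810 CPM in wild type, 1126 to 1187 in pnet1 and 616 to 753 in the overexpressor, and APL, SUC2 and the other 8 markers were all detected. Their part in the levels of IPT3 was not tested.

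Among the oxidases, 1 gene rose and 2 fell in the mutant, and 1 rose and 1 fell in the overexpression line, of 6 tested. Together with CYP735A2, 4 of 7 tested genes passed in the mutant, where 30.0% of all tested genes passed, and 3 of 7 passed in the overexpression line, where 11.2% passed. The median log2 fold change of the 7 genes was 0.17 in pnet1 and 0.04 in the overexpressor, against 0.00 over all tested genes in each. Both comparisons use the same wild-type libraries. In bulk tissue, fewer cells that express a gene and less transcript per cell cannot be told apart.

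**Figure D2:**
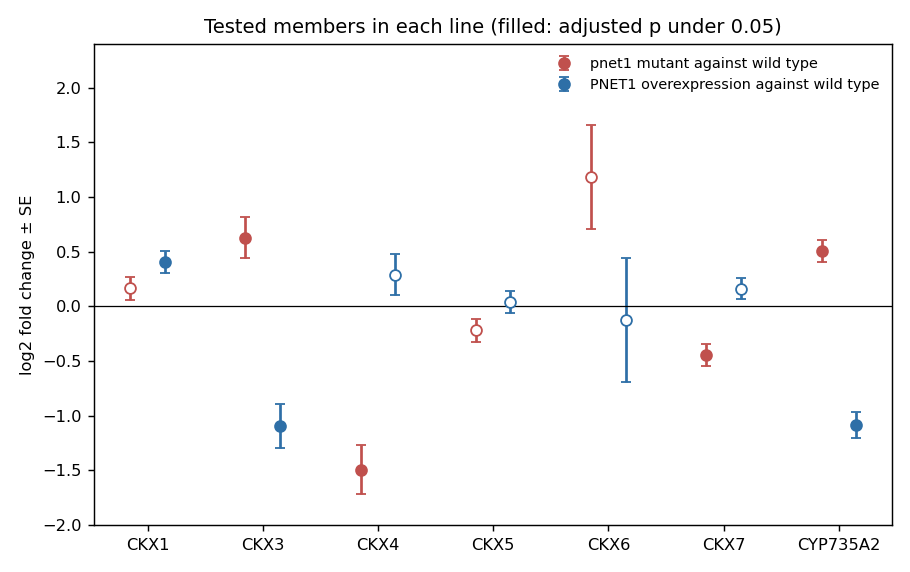
Log2 fold change with its SE (edgeR, 3 libraries a genotype) of the 7 tested genes in each line against wild type; filled points have an adjusted p under 0.05. CKX3 and CYP735A2 lie above 0 in pnet1 and below 0 in the overexpressor, and CKX4 has the largest change in the mutant.

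CKX3, which with CKX5 is known to restrain the meristem of the flowering shoot, was the oxidase with the largest change in absolute level. The gene (AT5G56970, chromosome 5, positions 23044839 to 23048292, minus strand, 5 exons) had 96.3, 141 and 156 CPM in wild type, 207, 190 and 209 in pnet1 and 70.9, 53.8 and 59.2 in the overexpressor. The genotypes did not overlap, and wild type had the widest spread, with replicate 1 nearest the overexpression line and replicate 3 nearest the mutant. The log2 fold change was 0.63 (edgeR adjusted p = 0.048, SE 0.19) in the mutant, or 1.54-fold. In the overexpression line CKX3 fell by 1.095 in log2 (edgeR adjusted p = 0.020, SE 0.20), to 2.14-fold below wild type.

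Both CKX3 calls depended on which libraries entered the fit. The mutant call ended without wild-type replicate 2 (adjusted p = 0.095), without any 1 of mutant replicates 1, 2 and 3 (0.12, 0.085 and 0.12) and without any 1 of overexpression replicates 1, 2 and 3 (0.054, 0.062 and 0.075). It also ended with no low-count filter (0.064) and when only the libraries of the 2 genotypes were fitted (0.087); the range over the alternatives was 0.0047 to 0.12. The overexpression call ended without wild-type replicate 2 (0.060) or 3 (0.064), without overexpression replicate 2 (0.069) or 3 (0.085) and with only the 2 genotypes fitted (0.062), in a range of 1.9e-06 to 0.085. The direct difference between the lines held under all 20 alternatives: CKX3 was 3.30-fold lower in the overexpression line than in the mutant (log2 fold change -1.72, edgeR adjusted p = 4.5e-04, SE 0.20).

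CKX4, a secreted oxidase known from trichomes, stomata and the root cap, showed the largest relative change in the mutant among the 4 genes called there. The gene (AT4G29740, chromosome 4, positions 14566183 to 14569380, plus strand, 5 exons) had 4.67, 5.75 and 3.83 CPM in wild type, 1.71, 2.07 and 1.26 in pnet1 and 4.66, 5.84 and 6.85 in the overexpressor. Mutant libraries were below all others, and wild type and the overexpression line overlapped. CKX4 fell by 1.49 on the log2 scale in the mutant (edgeR adjusted p = 9.6e-05, SE 0.23), to 2.82-fold below wild type, on 23 to 35 counts per mutant library. In the overexpression line its log2 fold change was 0.29 (edgeR adjusted p = 0.35, SE 0.19) and did not pass. Markers of epidermis and stomata moved with it: 8 of 8, among them FAMA and ATML1, fell in the mutant, where 17.4% of all tested genes fell. Their summed level was 175 to 239 CPM in wild type, 70.4 to 93.9 in pnet1 and 231 to 358 in the overexpressor, and none was at 0. Their part in the fall of CKX4 was not tested.

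CKX7, the cytosolic oxidase, fell by a smaller amount. The gene (AT5G21482, chromosome 5, positions 7226606 to 7230304, plus strand, 4 exons) had 16.3, 17.1 and 14.1 CPM in wild type, 12.4, 10.2 and 12.3 in pnet1 and 17.2, 17.7 and 18.2 in the overexpressor. The mutant did not overlap wild type, and the overexpression libraries lay just above it. The log2 fold change was -0.45 in the mutant (edgeR adjusted p = 0.0023, SE 0.10) and 0.16 in the overexpression line (edgeR adjusted p = 0.29, SE 0.09), where it did not pass. The mutant calls of CKX4 and CKX7 held under all 20 alternatives. In CKX3, CKX4, CKX7 and CYP735A2 alike, wild-type replicate 3 and overexpression replicate 1 were the libraries of their groups nearest the mutant, as on the first principal component. These were the genes called in the mutant, and the share of all tested genes with this order was not counted. Markers of photosynthesis fell as well: 10 of 10 passed in the mutant, where 17.4% of all tested genes fell. Their summed level was 3248 to 4123 CPM in wild type, 1795 to 1883 in pnet1 and 4184 to 5688 in the overexpressor. None was at 0, and their part in the fall of CKX7 was not tested.

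CKX1 was the oxidase that rose in the overexpression line. The gene (AT2G41510, chromosome 2, positions 17314412 to 17317354, plus strand) had 12.8, 12.2 and 10.5 CPM in wild type, 13.8, 12.5 and 13.4 in pnet1 and 16.2, 13.9 and 16.7 in the overexpressor. The overexpression libraries were above those of wild type, and the mutant overlapped wild type. The log2 fold change was 0.40 in the overexpression line (edgeR adjusted p = 0.017, SE 0.10) and 0.17 in the mutant (edgeR adjusted p = 0.25, SE 0.10). The overexpression call ended without wild-type replicate 3 (adjusted p = 0.098) or overexpression replicate 3 (0.078) and with limma on the unfiltered FPKM table (0.060), in a range of 0.0089 to 0.098 over the alternatives.

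CKX5 and CKX6, both secreted, did not pass in either line. CKX5 (AT1G75450, chromosome 1) had 16.8, 18.7 and 15.3 CPM in wild type, 14.0, 13.3 and 16.2 in pnet1 and 19.2, 15.8 and 17.04 in the overexpressor, with log2 fold changes of -0.22 (edgeR adjusted p = 0.12, SE 0.10) and 0.04 (edgeR adjusted p = 0.85, SE 0.10); all 3 genotypes overlapped. CKX6 (AT3G63440, chromosome 3) rested on 4, 3 and 13 counts in wild type, 12, 16 and 16 in the mutant and 8, 7 and 3 in the overexpression line. Wild-type replicate 3 stood at the level of the mutant. The log2 fold change in the mutant was 1.18 (edgeR adjusted p = 0.071, SE 0.48); without that library it was 2.06 and passed (adjusted p = 0.0084, in a range of 0.0084 to 0.23). Under overexpression it was -0.13 (edgeR adjusted p = 0.92, SE 0.57). CKX2 (AT2G19500, chromosome 2), a secreted enzyme, had 1, 2 and 0 counts in wild type and 0 in the other 6 libraries, which allows up to 0.162 to 0.177 CPM in each of those, so a difference was not detectable at this depth.

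Summed over CKX1 to CKX7, oxidase transcript was highest in pnet1 and lowest in the overexpressor. The sum was 74.3, 100 and 105 CPM per kb in wild type, 132, 121 and 133 in pnet1 and 63.1, 52.2 and 57.3 in the overexpressor, and the genotypes did not overlap. The order of the sum was that of CKX3, whose calls against wild type depended on the libraries fitted. Mean levels of CKX4, CKX5 and CKX7 were instead lowest in pnet1 and highest in the overexpressor. CKX1 was highest in the overexpressor and lowest in wild type. CKX6, at a low level, had the order of CKX3, and CKX2 had counts in wild type only. CKX3 made up 77.0% ± 5.46 of the sum in wild type, 86.5% ± 0.157 in pnet1 and 58.5% ± 2.94 in the overexpressor (SD, n = 3). The share of CKX7 was 8.497% ± 2.07, 4.37% ± 0.255 and 15.03% ± 1.64 in the same order, and that of CKX4 2.26% ± 0.599, 0.570% ± 0.165 and 4.39% ± 1.06. Since CKX3 is most of the sum, the shares of other genes also move when CKX3 does. In the overexpressor neither CKX7 (mean 8.59 CPM per kb, 7.68 in wild type) nor CKX4 (2.49, 2.05 in wild type) passed against wild type.

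Grouped by where the enzymes work, the sum moved in different ways. The secreted CKX2, CKX4, CKX5 and CKX6 together had 8.47 ± 0.964 CPM per kb in wild type, 6.46 ± 0.390 in pnet1 and 9.02 ± 0.441 in the overexpressor. CKX1 and CKX3 together had 76.8 ± 16.7, 116 ± 6.02 and 39.9 ± 5.21 CPM per kb. The secreted group was thus lowest in the mutant, whereas the group with CKX3 was highest there. CKX3 held 72.1 of the 76.8 CPM per kb in wild type, and CKX1 rose in the overexpression line, where that sum was lowest. CKX5 held 6.21 of the 8.47 CPM per kb of the secreted group in wild type and did not pass in either line. CKX6, also secreted, had a log2 fold change of 1.18 in the mutant, which did not pass. The sums thus do not show a shift of a whole group, and they are descriptions with no test.

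**Figure D3:**
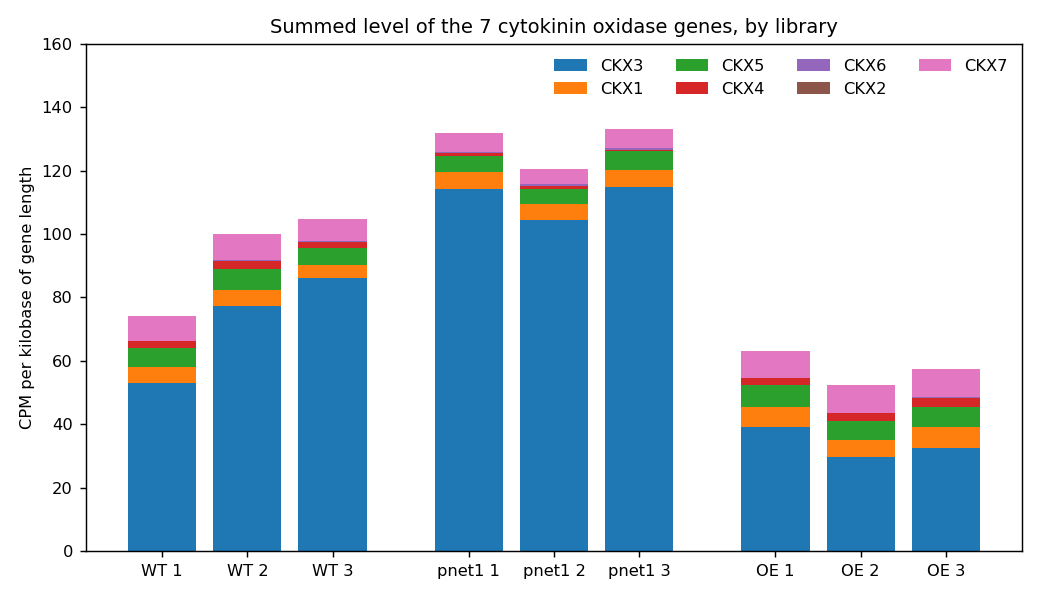
Summed level of the 7 oxidase genes in each library (WT, wild type; pnet1, mutant; OE, PNET1 overexpression), in TMM-scaled CPM per kilobase of gene length, split by gene. CKX3 fills most of each bar, and the bars run from 52.2 in an overexpression library to 133 in a mutant library.

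Set directly against each other, overexpressor and mutant differed in 6 of the 7 tested genes, where 43.5% of all tested genes passed. Of the 6, CKX4, CKX5 and CKX7 were higher in the overexpression line (23.0% of all tested genes were) and CKX3, CKX6 and CYP735A2 lower (20.6%). CKX4 was 3.45-fold higher in the overexpression line (log2 fold change 1.79, edgeR adjusted p = 3.7e-06, SE 0.22) and CKX7 1.52-fold higher (log2 fold change 0.61, edgeR adjusted p = 6.4e-05, SE 0.10). CYP735A2 was 3.01-fold lower (log2 fold change -1.59, edgeR adjusted p = 1.5e-08, SE 0.12), as CKX3 was by a like amount. The calls of CKX5 (log2 fold change 0.26) and CKX6 (-1.31) were near the threshold and held under 7 and 11 of 20 alternatives. CKX5 did so with overlapping libraries, and its call ended without any 1 of wild-type replicate 1, mutant replicates 1 and 2 and overexpression replicates 1 and 3. That of CKX6 ended without mutant replicate 2 or 3 or overexpression replicate 2 or 3.

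The patterns of CKX3 and CYP735A2 over the 9 libraries were close. As the root mean square difference of log2 CPM centred on each gene's mean, they stood 0.18 apart, where the SD over libraries was 0.79 for CKX3, and 0.03% of tested genes were closer to CKX3. The 3 genes with a symbol nearest to CKX3 were ACS2 (0.10) and ACS8 (0.14), which encode enzymes of ethylene synthesis, and PDF2.1 (0.16), a defensin-like gene. Those nearest to CYP735A2 were PMAT2 (0.12), MYB101 (0.13) and again ACS2 (0.14). Nearest to CKX4 were BZIP61 (0.11), SBT5.6 (0.12) and ABCG13 (0.13). CKX7 was nearest to PGR5 (0.06), HISN1B (0.06) and OSB2 (0.07), and CKX1 to CATHB1 (0.06), PIP5K5 (0.07) and BRH1 (0.08). All genotypes enter this measure, so it follows the differences between them.

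Other genes of cytokinin supply changed in places. Of the 8 other isopentenyltransferases, IPT1, IPT2 and IPT9 were tested and did not pass in the mutant, with edgeR adjusted p of 0.11, 0.24 and 0.10. IPT1 fell by 0.38 on the log2 scale in the overexpression line (edgeR adjusted p = 0.036, SE 0.11), a call that ended under DESeq2 and without any 1 of wild-type replicates 2 and 3, mutant replicates 1 to 3 and overexpression replicates 2 and 3. IPT4, IPT6, IPT7 and IPT8 had no count in any library. LOG1, which releases active cytokinin from its nucleotide, had the largest fall of all the tested cytokinin genes listed here: 1.61, 1.74 and 1.49 CPM in wild type, 0.228, 0.177 and 0.385 in pnet1 and 1.44, 1.72 and 2.43 in the overexpressor. Mutant libraries were below all others, with a log2 fold change of -2.57 (edgeR adjusted p = 8.4e-05, SE 0.38). This fall rested on 4, 3 and 7 counts in the mutant libraries, near the limit of detection, so its size is uncertain. The other 4 tested LOG genes did not pass in either line. UGT85A1, which glucosylates trans-zeatin, fell in the mutant, from 17.7 ± 2.15 to 8.69 ± 0.722 CPM (n = 3; log2 fold change -1.03, edgeR adjusted p = 2.9e-06, SE 0.10), and rose in the overexpression line by 0.39 in log2 (edgeR adjusted p = 0.012, SE 0.09), a call that ended without wild-type replicate 3 (0.076) or overexpression replicate 3 (0.057). ADK2, an adenosine kinase of cytokinin salvage, fell by 0.16 on the log2 scale in the mutant (edgeR adjusted p = 0.0055).

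Of 4 tested transporters, 3 rose in the mutant, where 12.6% of all tested genes rose. ABCG14, which exports trans-zeatin forms towards the shoot, had 60.1, 62.5 and 68.5 CPM in wild type, 111, 100.1 and 105 in pnet1 and 63.3, 49.6 and 47.8 in the overexpressor (mutant log2 fold change 0.73, edgeR adjusted p = 3.9e-04, SE 0.10). AZG1 (0.30) and PUP14 (0.29) were the other two, and AZG1 fell by 0.31 in the overexpression line (edgeR adjusted p = 0.015), a call that ended without wild-type replicate 3 or overexpression replicate 1. In the mutant 10 of 10 phloem markers rose as well, with the summed levels given beside IPT3. In the overexpression line 1 of the 10 fell, where 5.24% of all tested genes fell, and 9 did not pass (median log2 fold change -0.12). The part of these markers in the rises of CKX3, CYP735A2 and ABCG14 was not tested.

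In the signalling lists, 5 of 9 tested type-A ARRs, rapid targets of cytokinin that dampen the signal, fell in the overexpression line. The other 4 did not pass, with a median log2 fold change of -0.27 over the 9; over all tested genes 5.24% fell. ARR15 fell by 0.39 in log2 (edgeR adjusted p = 0.0098, SE 0.09), ARR9 by 0.35, ARR4 by 0.33, ARR8 by 0.27 and ARR5 by 0.24. The call of ARR15 ended without wild-type replicate 3 or overexpression replicate 2, and that of ARR9 without wild-type replicate 2 or 3, mutant replicate 2 or overexpression replicate 2 or 3. Without wild-type replicate 3 at most 1 of the 5 falls was left, since 1 of all the other cytokinin genes passed then, and without overexpression replicate 2 at most 2. In the mutant 2 rose and 1 fell: ARR3 (0.99) and ARR15 (0.28) rose and ARR16 fell by 0.69. The receptor genes AHK3 (0.19) and AHK4 (0.18), the phosphotransfer gene AHP3 (0.21) and the type-B gene ARR12 (0.20) rose in the mutant. Among 6 cytokinin response factor genes, CRF5 rose (0.32) and CRF2 fell by 0.31 on the log2 scale in the mutant, and CRF1 rose by 0.62 in the overexpression line. The CRF1 call ended under DESeq2 and without any 1 of wild-type replicates 1 to 3 and overexpression replicates 1 and 2. Several mutant calls also rested on single libraries: ARR15, AHP3, CRF2 and CRF5 ended without wild-type replicate 1 or mutant replicate 1, AHP3, CRF2 and CRF5 without mutant replicate 3, AHP3 and CRF2 without wild-type replicate 2, and CRF2 without mutant replicate 2. AHK4 ended without wild-type replicate 3 or mutant replicate 1, and ARR12 without any 1 of wild-type replicates 1 to 3 and mutant replicates 2 and 3.

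Over all 46 tested genes of these other lists, 10 rose and 5 fell in the mutant (median 0.09), where 12.6% of all tested genes rose and 17.4% fell. In the overexpression line 2 rose and 7 fell (median -0.05), where 5.97% of all tested genes rose and 5.24% fell. The overexpression count of 9 became 1 without wild-type replicate 3, 5 without wild-type replicate 2, 3 without overexpression replicate 2 and 5 without overexpression replicate 3. Over all genes the count of 2208 became 737, 1498, 1111 and 944 in the same order. The count of 3 among the members became 1 without wild-type replicate 3 or overexpression replicate 3; in both cases CYP735A2 was the gene that still passed.

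**Figure D4:**
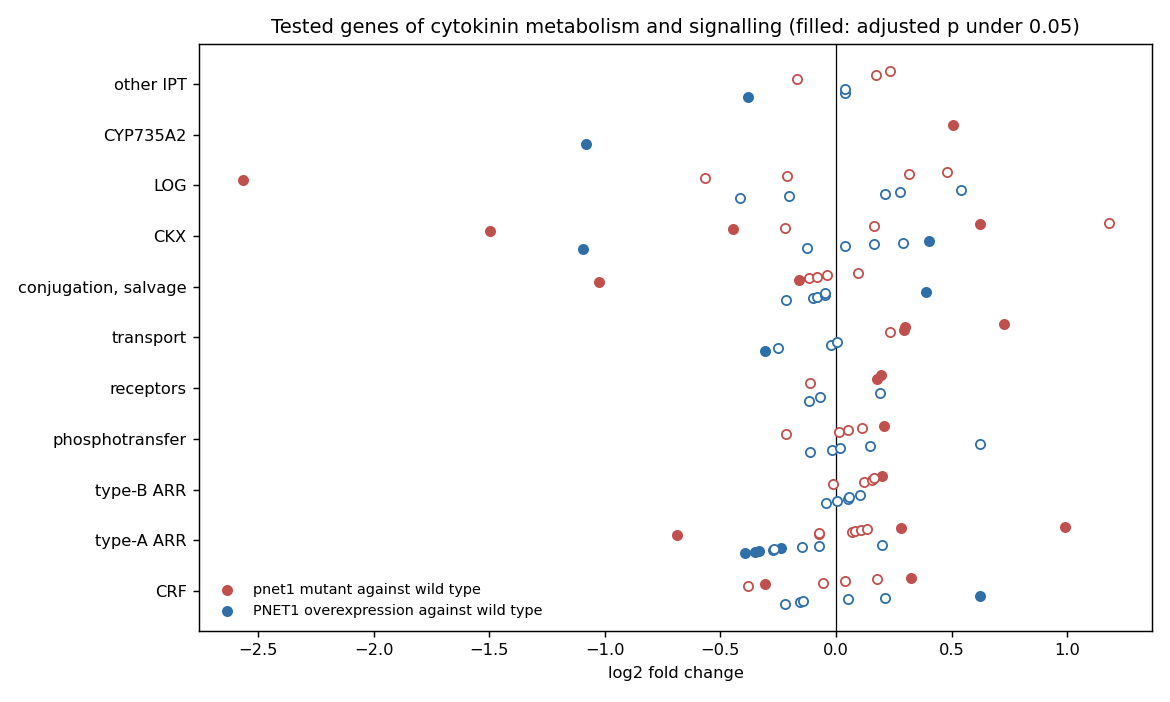
Log2 fold change of each tested gene of cytokinin synthesis, activation, breakdown, transport and signalling in the pnet1 mutant and the PNET1 overexpression line against wild type (edgeR); filled points have an adjusted p under 0.05. LOG1 lies at -2.57 and CKX4 at -1.49 in the mutant, and 5 type-A ARR genes are filled below 0 in the overexpression line.

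Exons of the paralogs shared short runs of sequence. CKX coding regions were at most 76.4% identical, for CKX2 and CKX4, and the longest run shared by the exons of any 2 CKX genes was 26 bases. Annotated genes on the other strand overlap CKX1, CKX2, CKX5 and CKX6, and since no source used here gives the strand setting of the counting, reads of such partners cannot be told apart with certainty. On the strand of CKX5 itself, the long noncoding RNA gene AT1G09553 overlaps it over 243 bases, with 0 or 1 counts per library. The largest overlap was that of AT3G63445, a long noncoding RNA gene antisense to CKX6 over 2234 bases, most of that gene, with 22 to 51 counts per library and a log2 fold change of -0.44 in the mutant (edgeR adjusted p = 0.21). AT2G41515, antisense to most of CKX1, had 0 counts in all 9 libraries. CKX3, CKX4, CKX7, CYP735A1, CYP735A2 and IPT3 overlapped no annotated gene.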

How the data were processed

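Strand-specific mRNA libraries were made from total RNA, per the labels' protocols. The authors deposited raw counts per gene and a table of FPKM values, in which values of genes over 20 counts were, within 1%, the count divided by gene length and by 1 constant per library. Tools listed without a role in the submitters' processing notes are HTSeq (0.6.1p1) and HISAT2 (2.0.4), with build TAIR10. Of 32548 genes found in the TAIR10.1 annotation, 32532 had the same position.

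Counts were analysed with edgeR 4.0.16 in R 4.3.3: filterByExpr (minimum count 10, minimum total 15) kept 19698 genes, TMM factors scaled the libraries, and all 9 entered 1 robust quasi-likelihood fit. The threshold for a call was a p of 0.05 after Benjamini-Hochberg adjustment over all tested genes, and only called genes are said to rise or fall. SE is implied by the F statistic. CPM per kb is TMM-scaled CPM over gene length. Limits from counts of 0 cover counting error only. The test was checked on simulated data with 100 genes changed 1.5-fold and 100 changed 2-fold in each line. It recovered 74% and 85% of these in the mutant, with 9 false among 168 calls. In the overexpression line it recovered 80% and 87%, with 15 false among 182 calls. These were changes in a small part of 19632 tested genes, whereas 30.0% and 11.2% of tested genes passed in the measured data. Recovery and false calls there may therefore differ.

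The 10 genes, and 122 further genes in lists, were chosen with earlier results of these data known. Named genes were all members, up to 4 called genes per cytokinin list with the largest change, and the 3 nearest genes in pattern of each called member. Table or reference paired 130 of 132 symbols. Genes beyond that rule (IPT2, IPT9, ARR4, ARR5 and ARR8, genes at 0 and the marker genes) were named after their values were seen. Alternatives were RLE, upper-quartile and total scaling, no filter, DESeq2 1.42.0, fits of 2 genotypes, a replicate block, limma 3.58.1 on log2(FPKM + 0.1) or log2(FPKM + 1), each library left out, and, added after the data were seen, an offset per gene for its length and GC content.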

Additional observations from a re-analysis of the deposited data

How the results depend on the processing

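Over 7 tested members, 3 comparisons and 20 alternatives, 366 values kept direction and side of the threshold, 41 lost their call, 5 gained one and 6 changed sign; CKX6 under overexpression had no value under 2 of the alternatives. Leaving out each library gave 3 to 5 called members in pnet1, 1 to 3 in the overexpressor and 4 to 7 between the lines, and 10 to 18, 1 to 10 and 26 to 33 other cytokinin genes. The 9 other cytokinin genes of the overexpression line became 2 with limma on log2(FPKM + 0.1) without a filter. Each sign change was in a value that had not passed. With a library left out, log2 fold changes in the overexpression line ran from -0.42 to 0.76 for CKX6, -0.031 to 0.11 for CKX5, -0.029 to 0.036 for PUP14, -0.013 to 0.048 for ARR12 and -0.027 to 0.39 for LOG1, and in the mutant from -0.19 to 0.027 for CRF1. CKX6 under overexpression was 0.011 with log2(FPKM + 0.1), with or without the filter. The offset for length and GC content gave 0.021 for CRF1 in the mutant and -0.028 for PUP14 and -0.012 for ARR12 under overexpression. That offset raised the share of higher calls over all genes from 42.0% to 63.4% in the mutant and lowered it from 52.8% to 33.8% between the lines, with a median of all genes at -0.12 there; CKX6 then passed in the mutant (adjusted p = 0.039). The cause was not tested. CKX4 in the mutant ranged from -1.67 to -0.81, the smallest with log2(FPKM + 1), where the pseudocount shrinks low genes. Over all genes the overexpression count of 2208 was 1430 with only the 2 genotypes fitted, 1030 with unfiltered FPKM, and 737 to 3125 with a library left out.

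Replicate numbers are shared by the genotypes, but 0 of 9 same-numbered pairs correlated above 0.1 and 3 of 9 libraries were closest to their own number, so the numbers do not pair the samples. With the replicate block, 3 members passed in pnet1, 2 in the overexpressor and 4 between the lines. CKX3 then had an adjusted p of 0.097 in pnet1 and 0.060 in the overexpressor, and 14, 6 and 33 other cytokinin genes passed.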
